A study of Mus musculus with 30 samples.

Results

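The 9 marrow libraries described here compare mice that reached acute myeloid leukaemia (AML) with mice that reached myelodysplastic syndrome (MDS) when exposure to ENU (N-ethyl-N-nitrosourea, an alkylating mutagen) was labelled the same on both sides. They were chosen by label out of the 30 libraries of the study. All 6 MDS libraries carry the label of ENU given to donor and recipient, and 3 of the 6 AML libraries (AML 1, AML 4 and AML 5) carry it too. Every donor was a C57BL/6 mouse with 1 Egr1 allele and 1 Apc allele lost (Egr1+/-, Apc del/+), and every recipient was wild type. Marrow given to the MDS mice had been transduced with a shRNA against luciferase, as a control, and marrow given to the AML mice with a shRNA against Trp53. Disease and Trp53 knockdown therefore cannot be told apart in this comparison. Each library is whole bone marrow RNA from 1 mouse with its own tag. Not given in the sources used here are the vector, how the Apc allele was deleted, the share of transduced cells, and which host cells stayed in the marrow.

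Egr1, Apc and Trp53 are genes whose loss recurs in myeloid neoplasms that follow alkylating therapy. MDS is a disorder of ineffective blood formation, and AML is the outgrowth of immature cells that replaces normal marrow. Red cell precursors depend on the factors GATA1 and KLF1, on erythropoietin signalling and on haem synthesis. Neutrophils pass through a primary granule stage and a late granule stage, and T cells mature in the thymus under NOTCH1 and TCF1 (encoded by Tcf7), so that marrow normally holds few immature T cells.

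The 250 bases before the start of 3 genes are shown because erythroid and T cell genes are the groups on which the comparison turns. Alas2 encodes the first enzyme of haem synthesis in red cells, Epor the erythropoietin receptor and Cd3d a chain of the T cell receptor complex. The sequences are from RefSeq on GRCm38.p6, written 5′ to 3′ on the strand of the gene, at chrX:150547167-150547416 (+), chr9:21963577-21963826 (-) and chr9:44981536-44981785 (+). Capitals mark AGATAA, the letters that GATA factors recognise, or CTTTGA, the core that TCF and LEF factors recognise, on either strand.
Alas2: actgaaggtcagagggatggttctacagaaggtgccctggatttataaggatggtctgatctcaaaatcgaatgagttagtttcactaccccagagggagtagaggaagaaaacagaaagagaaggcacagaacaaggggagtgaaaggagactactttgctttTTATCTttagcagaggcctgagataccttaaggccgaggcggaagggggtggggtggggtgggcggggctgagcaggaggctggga
Epor: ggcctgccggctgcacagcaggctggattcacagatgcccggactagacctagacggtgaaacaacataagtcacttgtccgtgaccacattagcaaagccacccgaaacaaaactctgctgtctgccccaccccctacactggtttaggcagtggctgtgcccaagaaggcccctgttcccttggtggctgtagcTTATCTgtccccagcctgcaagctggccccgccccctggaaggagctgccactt
Cd3d: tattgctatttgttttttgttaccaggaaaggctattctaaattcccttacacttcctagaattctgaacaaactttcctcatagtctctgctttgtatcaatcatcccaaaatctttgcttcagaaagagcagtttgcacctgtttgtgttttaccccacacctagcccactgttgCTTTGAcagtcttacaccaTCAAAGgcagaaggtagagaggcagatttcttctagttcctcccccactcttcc
The Alas2 match begins 86 bases before the start and the Epor match 54 bases before it, both on the reverse strand, and the Cd3d matches begin at 73 and 54 bases. AGATAA was present before 7 of the 22 measured erythroid list genes with 1 annotated start (31.8%), against 412 of 7153 such genes of the marrow table (5.76%) and 9.99% of all 32851 RefSeq promoters. It was also present before 7 of 30 late neutrophil genes (23.3%), 1 of 12 haem and iron genes (8.33%) and 2 of 17 T cell genes (11.8%). CTTTGA was present before 2 of 17 T cell genes (11.8%), against 10.8% of the genes of the table. The CACCC box letters CCACCC, recognised by KLF1, were present before 11 of 22 erythroid genes (50%), against 32.3%. No match of one motif overlapped a match of another in these 3 sequences, and a match is only a description of these letters.

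The targeted gene, Trp53, spans chr11:69580359-69591873 in GRCm38. Its values in MDS 1 to 6 were 97.9, 92.7, 43.1, 57.4, 72.2 and 45.4. It was 26.3 in AML 4 and 27.0 in AML 5, below every MDS library, but 58.0 in AML 1, inside the MDS range. The level of the targeted gene thus goes against the label in AML 1, which is called the library labelled AML 1 from here on. AML 1 was not alone in this among the libraries labelled with the Trp53 shRNA. Outside the matched set, Trp53 was 23 in AML 2, 33.4 in AML 3 and 50.2 in AML 6, the last also inside the MDS range. Over the 3 matched AML libraries the log2 difference was -0.89 ± 0.33 (SE, 3 AML against 6 MDS; limma, adjusted p = 0.138), and without the library labelled AML 1 it was -1.25 (adjusted p = 0.014). Egr1 was 135 to 597 in MDS (median 211) and 227, 340 and 190 in the library labelled AML 1, AML 4 and AML 5 (log2 difference 0.05 ± 0.41, adjusted p = 0.948). Apc was 82.2 to 117 in MDS (median 94.2) and 73.7, 125 and 122 in the same order (0.12 ± 0.20, adjusted p = 0.718). Both groups carry the Egr1 and Apc alleles, so no difference between them tests those labels.

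Recovered reads numbered 18511519 to 20555277 per library. Values correlated at 0.956 to 0.986 among the MDS libraries (Pearson's r of log2 values across 11275 genes, which are not independent replicates). The library labelled AML 1 lay near that range, at 0.939 to 0.979 with the MDS libraries, while AML 4 (0.864 to 0.876) and AML 5 (0.840 to 0.854) lay apart from them and correlated at 0.887 with each other. The share of genes outside the MDS range was 22.1% above and 21.1% below in the library labelled AML 1. It was 36.2% and 33.3% in AML 4, and 36.4% and 31.7% in AML 5. Single MDS libraries set against the other 5 gave 9.65% to 24.1% above and 12% to 25.3% below. MDS 1 gave the largest of these MDS shares (24.1% and 25.3%). The library labelled AML 1 was set against 6 MDS libraries and MDS 1 against 5, and a range over fewer libraries leaves more genes outside it. These shares therefore do not rank the library labelled AML 1 against MDS 1. By correlation the library labelled AML 1 stood slightly farther from the MDS libraries than MDS 1 did, since its lowest value was 0.939 and that of MDS 1 was 0.956.

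Marker lists went against a myeloid reading of 2 of the 3 AML libraries. The summed level of 31 measured T cell genes was 511 to 745 in MDS, 786 in the library labelled AML 1, 6250 in AML 4 and 10090 in AML 5. The summed level of 35 late neutrophil genes was 77710 to 128600 in MDS, 150700 in the library labelled AML 1, 20930 in AML 4 and 33550 in AML 5. T cell genes were thus far higher and neutrophil genes far lower in AML 4 and AML 5 than in any MDS library, and the libraries are called here by their labels only. In whole marrow, fewer cells of a type and less RNA per cell cannot be told apart.

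The question of the design is what separates AML from MDS marrow at matched ENU exposure. Values of genes were compared as log2(value + 1) with limma over 11275 genes, at an adjusted p threshold of 0.05. No gene passed in either direction (0% higher and 0% lower), and the smallest adjusted p was 0.108. At an unadjusted p under 0.05 limma gave 3036 genes, 1590 higher (14.1%) and 1446 lower (12.8%). edgeR's quasi-likelihood test on the recovered reads called 22 genes higher (0.195%) and 1 lower (0.00887%), all at an adjusted p of 0.0491. DESeq2 called 1170 higher (10.4%) and 616 lower (5.46%). All 3 AML libraries lay above all 6 MDS libraries for 578 genes (5.13%) and below all of them for 500 (4.43%).

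The count turned on 1 library. Without the library labelled AML 1, limma called 2202 genes higher (19.5%) and 2018 lower (17.9%). Without any other single library it called none, apart from 1 lower gene without MDS 2. Of the 2202 genes called higher in AML 4 and AML 5, the library labelled AML 1 was inside the MDS range for 1354 (61.5%). It was above that range for 448 (20.3%, against 22.1% of all genes). Of the 2018 called lower it was inside for 1005 (49.8%) and below for 401 (19.9%, against 21.1% of all genes). Its shares beyond the range were thus near those over all genes. Its median difference from the MDS mean over the genes called higher was 0.01 on the log2 scale, against 0.96 in AML 4 and AML 5. These genes were called on AML 4 and AML 5 themselves, so the contrast of medians is not a test. Without the library labelled AML 1, limma called 4220 genes in all (19.5% of all genes higher and 17.9% lower). They held all 23 genes that edgeR called and 1601 of the 1786 that DESeq2 called (89.6%). Those 1601 were 37.9% of the 4220 and the 23 were 0.545%. The fits share all the other libraries, so the overlap is not separate support.

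**Figure D1:**
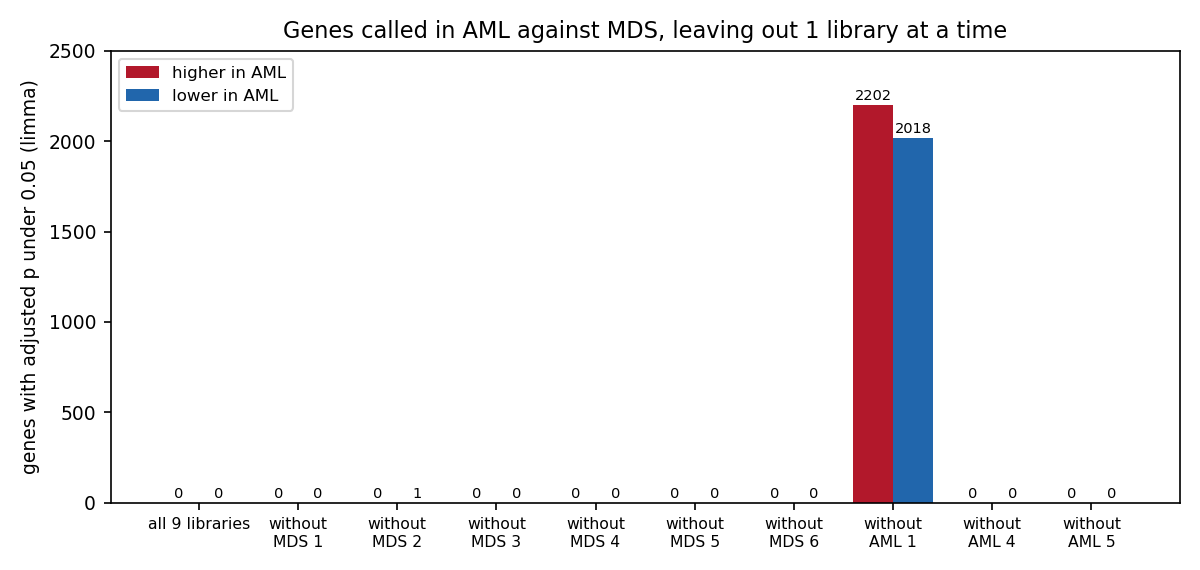
Number of genes with an adjusted p under 0.05 (limma, bars from 0) in AML against MDS marrow, with all 9 libraries and with each library left out in turn. Calls appear without the library labelled AML 1 (2202 higher and 2018 lower), and otherwise number 0 except for 1 lower gene without MDS 2.

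The genes with the smallest p in each direction did not pass, and they are given as values. All 16 lay outside the MDS range in all 3 AML libraries, at an adjusted p of 0.108 (limma). Gpr146, an orphan receptor, was 53.3, 72.7 and 84.8 in MDS (lowest, median, highest) and 28.8, 24.6 and 22.3 in the library labelled AML 1, AML 4 and AML 5, a log2 difference of -1.43 ± 0.19 (SE). It was the 1 lower gene that passed in edgeR. The other lower genes included Fam213a (310 to 749 in MDS against 39.9 to 136 in AML), Abcg2, a transporter that exports porphyrins among other compounds (123 to 358 against 37.5 to 66.3), and Slc48a1, a haem transporter (206 to 351 against 98.2 to 133). Tsc22d3, a glucocorticoid-induced gene, was 377 to 602 in MDS and 90.4 to 216 in AML, a log2 difference of -1.59 ± 0.28. Prnp, Lpcat1 and Serpine2 completed the lower set, with differences of -1.87, -1.08 and -1.37.

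Of the higher set, Ptpn23, a tyrosine phosphatase of endosomal sorting, was the most even. It was 40.5 to 53.4 in MDS and 88.1, 84.7 and 84.0 in the 3 AML libraries, a log2 difference of 0.85 ± 0.14 (SE). Id3, an inhibitor of E proteins, was 1.70 to 9.29 in MDS and 16.0, 172 and 68.6 in AML (3.40 ± 0.63). Phlda1 was 9.45 to 30.1 in MDS and 61.5, 45.4 and 94.4 in AML (1.99 ± 0.36). The rest of the set had low values: Sept4 was at most 1.37 in MDS and 4.53 to 6.03 in AML, and Tgif2, a homeobox repressor, was at most 3.74 in MDS and 7.87 to 13.9 in AML. Nr1d1, Rps6kl1 and Zfp503 had log2 differences of 1.66, 1.67 and 1.76. Every one of the 16 genes was also called without the library labelled AML 1 (background 19.5% higher and 17.9% lower). That fit holds the same other libraries from which the 16 were picked, so it is not separate support.

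Most erythroid genes lay low in all 3 AML libraries. Of 34 measured genes, 32 were lower at an unadjusted p under 0.05 (background 12.8%), none passed, and the median log2 difference was -1.56, against 0.02 over all genes. All 3 AML libraries lay below all 6 MDS libraries for 16 of the 34 (background 4.43%). The library labelled AML 1 was below the MDS range for 30 of the 34 (21.1% of all genes), more than for any other list. Without it 21 fell (background 17.9%), and without AML 5 the count of 32 became 19. DESeq2 called 28 lower and edgeR none. The summed level was 14280 to 48690 in MDS, 7925 in the library labelled AML 1, 11910 in AML 4 and 3399 in AML 5.

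Membrane genes of the red cell showed the pattern most clearly. Rhag, an Rh family membrane protein, was 249, 354 and 858 in MDS (lowest, median, highest) and 94.2, 148 and 39.1 in the library labelled AML 1, AML 4 and AML 5. The log2 difference was -2.19 ± 0.45 (SE, limma, adjusted p = 0.108), with no overlap between the groups. Slc4a1, the band 3 anion exchanger, was 3867, 5170 and 12310 in MDS and 1400, 2457 and 552 in AML (-2.17 ± 0.54). Tspan33, a tetraspanin of erythroid progenitors, was 199 to 532 in MDS and 100, 158 and 34.5 in AML (-1.98 ± 0.44). AML 5 was the lowest library for each of these genes and AML 4 the nearest to MDS.

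Receptors and factors were lower by less. Epor was 47.4, 73.4 and 146 in MDS and 28.5, 43.5 and 12.2 in the 3 AML libraries (-1.58 ± 0.40 (SE), adjusted p = 0.108). E2f2, a cell cycle factor that is abundant in late erythroblasts, was 731 to 1438 in MDS and 504, 479 and 194 in AML (-1.41 ± 0.35). Gata1, Klf1 and Nfe2 were named after their values were seen. Gata1 was 56.2 to 211 in MDS and 46.6, 51.7 and 17.7 in AML, with no overlap. Klf1 was 51.3 to 225 in MDS and 52.1, 56.0 and 17.0 in AML, so that 2 of the 3 lay inside the MDS range. Nfe2, which megakaryocytes and neutrophils also express, was 332 in the library labelled AML 1, inside the MDS range of 291 to 511, and 112 and 101 in AML 4 and AML 5. The 2 list genes that did not reach an unadjusted p under 0.05 were Mns1 (15.2 to 49.1 in MDS, 20.3, 93.1 and 36.7 in AML) and Car1 (136 to 363 in MDS, 158, 264 and 72.8 in AML).

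**Figure D2:**
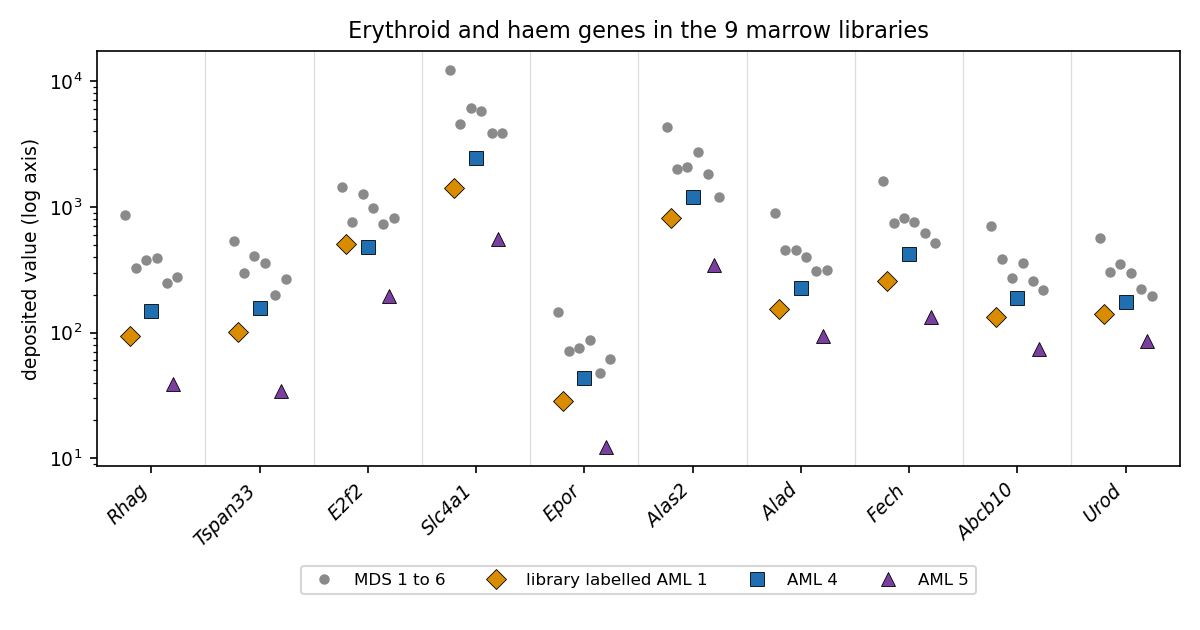
Deposited values (log axis) of erythroid membrane, factor and haem genes in the 6 MDS libraries (grey circles) and in the library labelled AML 1 (diamonds), AML 4 (squares) and AML 5 (triangles). All 3 AML points lie below all 6 MDS points for each gene shown, and AML 5 is the lowest, as for Rhag at 39.1 against 249 to 858 in MDS.

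Of 27 measured haem and iron genes, 15 were lower at an unadjusted p under 0.05 and 0 higher (background 12.8% and 14.1%), none passed, and 10 lay below all MDS libraries in all 3 AML libraries (background 4.43%). Alas2 was 1203, 2036 and 4314 in MDS and 809, 1198 and 344 in the library labelled AML 1, AML 4 and AML 5 (-1.65 ± 0.46 (SE), adjusted p = 0.109). Alad, the next enzyme, was 306 to 885 in MDS and 153, 228 and 94.3 in AML (-1.55 ± 0.36). Fech, which inserts the iron, was 517 to 1599 in MDS and 258, 424 and 134 in AML (-1.68 ± 0.40). These 3 enzymes and the mitochondrial transporter Abcb10 (-1.45 ± 0.38) lay low in all 3 libraries. Urod differed by -1.23 and Fam210b by -1.54.

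The ferritin genes, named after their values were seen, differed between the AML libraries. Fth1, the heavy chain, was 1077 to 1660 in MDS, 1956 in the library labelled AML 1, 713 in AML 4 and 510 in AML 5. Ftl1 was 116 to 204 in MDS and 214, 97.1 and 83.4 in the same order. For both ferritin chains the library labelled AML 1 was above every MDS library and the other 2 below. Without that library 14 of the 27 genes fell (background 17.9%), Fth1 among them (-1.14, limma, adjusted p = 0.0041), and 1, Slc11a2, an iron importer chosen after its values were seen, rose (39.5 to 109 in MDS, 103 and 122 in AML 4 and AML 5).

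T cell genes were high in 2 of the 3 AML libraries. Of 31 measured genes, 23 were higher at an unadjusted p under 0.05 (background 14.1%), none was lower, and none passed. The median log2 difference was 2.65. Without the library labelled AML 1, 22 of 31 rose (background 19.5%) and none fell. edgeR called 10 of the 31 with all 3 libraries, out of 22 genes called higher in all. The 3 AML libraries lay above all 6 MDS libraries for 10 genes (background 5.13%), and AML 4 and AML 5 for 22 (background 24.4%). In the library labelled AML 1, 12 of the 31 were above the MDS range and 3 below it (22.1% and 21.1% of all genes).

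Genes of the receptor complex lay above MDS in all 3 AML libraries. Cd3d was 4.67, 13.4 and 16.3 in MDS (lowest, median, highest) and 22.8, 260 and 384 in the library labelled AML 1, AML 4 and AML 5, a log2 difference of 3.40 ± 0.74 (SE, limma, adjusted p = 0.108; 4.65 and adjusted p = 0.000107 without the library labelled AML 1). Cd3g was 1.27 to 9.61 in MDS and 11.6, 244 and 372 in AML. Zap70, the kinase that binds the activated receptor, was 2.76 to 7.69 in MDS and 9.89, 189 and 214 in AML (3.49 ± 0.80). In each of these the library labelled AML 1 was the lowest of the 3 and only just above MDS. The costimulatory receptors Cd28 (8.48 to 18.1 in MDS; 20.1, 458 and 214 in AML) and Cd27 (4.93 to 14.4; 15.5, 173 and 157) had the same arrangement.

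Factors of the T lineage were named after their values were seen. Gata3 was 2.01 to 4.56 in MDS and 3.77, 95.7 and 98.8 in the library labelled AML 1, AML 4 and AML 5. Bcl11b was 3.45 to 6.98 in MDS and 3.44, 155 and 213 in AML. The library labelled AML 1 therefore lay inside the MDS range for Gata3 and at its lower edge for Bcl11b. Cd4 did not separate the groups (4.24 to 11.3 in MDS; 5.08, 8.21 and 6.47 in AML; adjusted p = 0.709).

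AML 4 and AML 5 differed from each other in which T cell genes were high. These genes were chosen after their values were seen, and with 1 library on each side no test applies. Rag1, a recombinase of immature lymphocytes, was 1.09 in AML 4 and 586 in AML 5, against at most 2.04 in MDS. Dntt, which adds bases at V(D)J joints, was 0.475 and 528, against 1.59 to 13.4 in MDS. Notch1 was 160 and 1611, against 188 to 335 in MDS, and the NOTCH target genes Hes1 (2.66 and 145) and Dtx1 (1.95 and 150) had the same order. AML 4 was the high library for Ccr9, a thymus homing receptor (598 and 15.2, against 2.23 to 8.29 in MDS) and for Il7r, the interleukin 7 receptor (632 and 20.1, against 16.8 to 32.6). Cd8a was 42.8 in AML 4 and 6.47 in AML 5, against 2.76 to 10.3 in MDS.

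**Figure D3:**
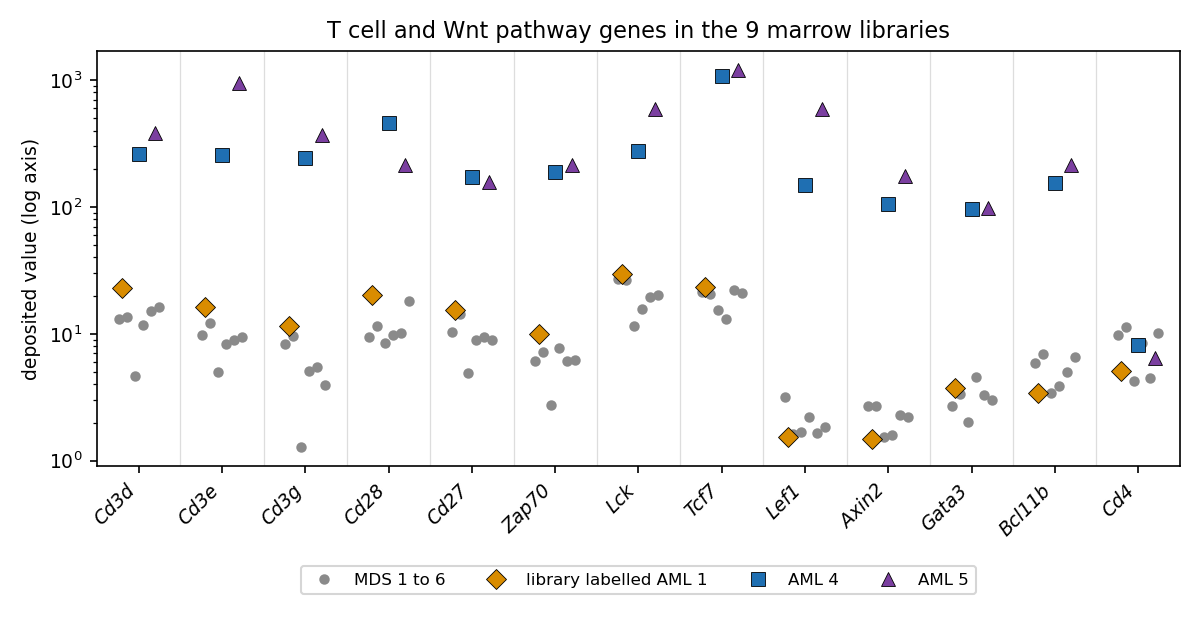
Deposited values (log axis) of T cell and Wnt pathway genes in the 6 MDS libraries (grey circles) and in the library labelled AML 1 (diamonds), AML 4 (squares) and AML 5 (triangles). AML 4 and AML 5 lie far above MDS for every gene shown except Cd4, while the library labelled AML 1 lies among or near the MDS points.

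Apc restrains Wnt signalling, whose output is carried by beta-catenin with TCF and LEF factors. Of 27 measured pathway and target genes, 6 were higher and 2 lower at an unadjusted p under 0.05 (background 14.1% and 12.8%), and the median log2 difference was 0.04. Tcf7 was 13, 20.6 and 22.1 in MDS and 23.2, 1070 and 1207 in the library labelled AML 1, AML 4 and AML 5 (4.02 ± 1.01 (SE), adjusted p = 0.108). Lef1 was 1.62 to 3.17 in MDS and 1.53, 149 and 595 in AML. Axin2, a direct target and inhibitor of the pathway, was 1.54 to 2.72 in MDS and 1.48, 105 and 174 in AML (3.51 ± 1.06, adjusted p = 0.110). All 3 genes were called by edgeR, yet the library labelled AML 1 lay below every MDS library for Lef1 and Axin2. Tcf7 and Lef1 are also T cell genes and stand in both lists. Dvl2, a cytoplasmic activator of the pathway, lay above all MDS libraries in all 3 (11.6 to 18.9 in MDS; 20.4, 45.7 and 38.7 in AML; 1.11 ± 0.26).

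Many neutrophil and monocyte genes lay on opposite sides of MDS among the AML libraries. Of 35 late neutrophil genes, 3 were higher and 6 lower at an unadjusted p under 0.05 (background 14.1% and 12.8%), and none passed. Without the library labelled AML 1, 28 fell and none rose (background 17.9% and 19.5%). That library was above the highest MDS library for 23 of the 35 (22.1% of all genes), while AML 4 and AML 5 were both below the lowest for 27 (background 20.8%). Without AML 4 or without AML 5 the count of lower genes at unadjusted p went from 6 to 0.

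S100a8, Ltf, S100a9, Ngp and Camp, chosen after their values were seen, had no overlap between MDS, the library labelled AML 1, and AML 4 with AML 5. S100a8, a calcium-binding protein of neutrophils, was 10990 to 17630 in MDS, 21780 in the library labelled AML 1, 2486 in AML 4 and 4327 in AML 5. Ltf, lactoferrin, was 4223 to 9050 in MDS and 13370, 1915 and 3090 in the same order. S100a9, Ngp and Camp lay the same way. Cxcr2, the receptor that draws neutrophils out of marrow, was 175, 239 and 390 in MDS and 284, 38.2 and 70.1 in AML (-1.40 ± 0.50 (SE), adjusted p = 0.131; -2.22 and adjusted p = 0.000835 without the library labelled AML 1). Ifitm6 was 596 to 1834 in MDS and 1259, 154 and 182 in AML.

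The stefin genes were the exception. Stfa3, a cysteine protease inhibitor of neutrophils, was 2.72, 5.90 and 43.8 in MDS and 103, 32.2 and 67.8 in the library labelled AML 1, AML 4 and AML 5 (2.64 ± 0.82 (SE), adjusted p = 0.112). Stfa2 was 3.28 to 63.0 in MDS and 113, 42.4 and 95.9 in AML, and Stfa1 was 0.792 to 16.5 and 27.3, 10.4 and 32.7. These are near-identical neighbouring genes whose reads counting can split, so each value is uncertain. The groups overlapped for all 3, since MDS 3 and MDS 5 were also high.

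Of 22 monocyte genes, 3 were lower at an unadjusted p under 0.05, near the background of 12.8%, and 12 fell without the library labelled AML 1 (background 17.9%). That library was above the MDS range for 19 of the 22 (22.1% of all genes). Its summed monocyte level was 18880, against 7253 to 12290 in MDS, 4845 in AML 4 and 4855 in AML 5. Cybb, the catalytic subunit of the phagocyte oxidase, was 1511 to 2291 in MDS and 2434, 570 and 679 in AML. Ctss, a lysosomal protease, was 259 to 371 in MDS and 373, 126 and 69.0 in AML (-1.18 ± 0.41 (SE), adjusted p = 0.126). Lyz2, lysozyme, named after its values were seen, was 1777 to 5604 in MDS, 9858 in the library labelled AML 1, 1735 in AML 4 and 2624 in AML 5, so that AML 5 lay inside the MDS range (-0.66 without the library labelled AML 1, limma, adjusted p = 0.244).

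Primary granule and myeloid progenitor genes were mostly low in AML 4 and AML 5 and inside the MDS range in the library labelled AML 1. Of 19, 5 were lower at an unadjusted p under 0.05 (background 12.8%), and 15 fell without the library labelled AML 1 (background 17.9%). Cebpa, the factor that commits progenitors to granulocytes, was 83.8, 112 and 136 in MDS and 79.0, 36.9 and 48.3 in the 3 AML libraries (-1.05 ± 0.25 (SE), adjusted p = 0.108). It was the 1 gene of the 19 below all MDS libraries in all 3 (background 4.43%). Csf2rb, the shared chain of the GM-CSF and interleukin 3 receptors, was 344 to 594 in MDS and 501, 93.3 and 114 in AML. Ctsg, a granule protease, was 209 to 721 in MDS and 413, 92.1 and 240 in AML. Elane, named after its values were seen, was 1161 in the library labelled AML 1, inside the MDS range of 548 to 1649, and 316 and 736 in AML 4 and AML 5, with AML 5 inside that range too.

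**Figure D4:**
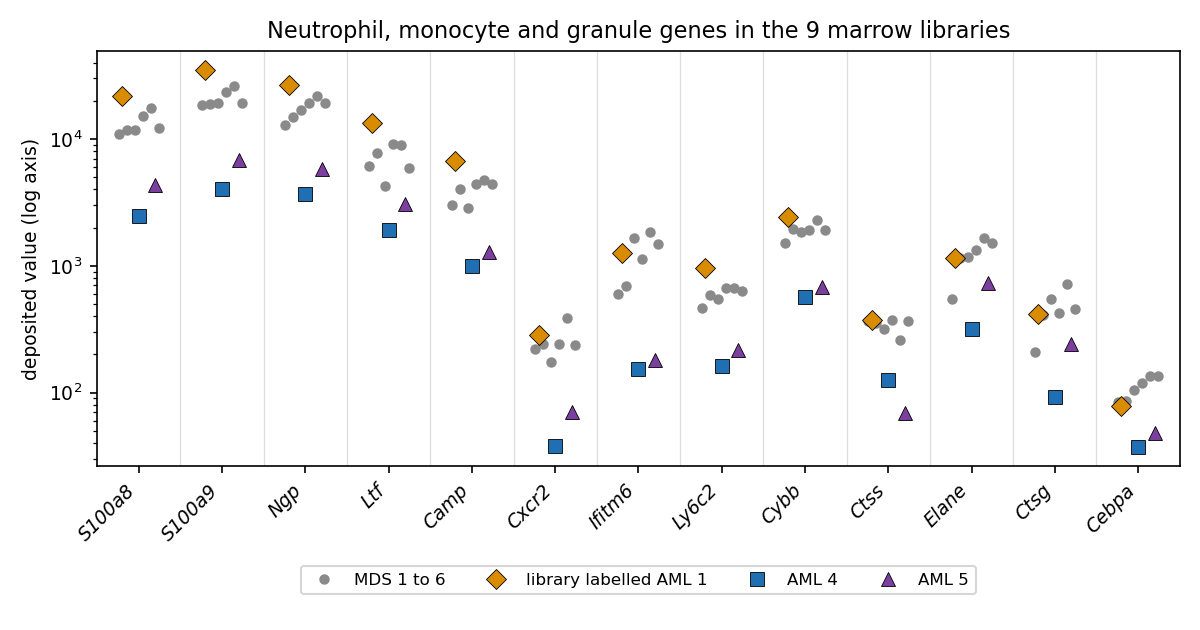
Deposited values (log axis) of neutrophil, monocyte and granule genes in the 6 MDS libraries (grey circles) and in the library labelled AML 1 (diamonds), AML 4 (squares) and AML 5 (triangles). The library labelled AML 1 is above every MDS library for S100a8 (21780) while AML 4 (2486) and AML 5 (4327) are below every one, and for Cebpa all 3 lie below MDS.

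Of the 25 measured stem and progenitor genes, 4 were higher and 8 lower at an unadjusted p under 0.05 (background 14.1% and 12.8%), and none passed. Kit, the stem cell factor receptor, was 68.8, 72.5 and 82.1 in MDS and 46.2, 41.0 and 54.1 in the library labelled AML 1, AML 4 and AML 5 (-0.64 ± 0.14 (SE), adjusted p = 0.108). Flt3, the receptor of the FLT3 ligand, was 33.5, 72.2 and 145 in MDS and 32.7, 22.1 and 16.7 in AML (-1.63 ± 0.38). Jak2, a kinase that carries erythropoietin and thrombopoietin signals, was 145 to 222 in MDS and 132, 126 and 122 in AML (-0.57 ± 0.16). The groups did not overlap for any of these 3 lower genes, of which Jak2 is not in the stem and progenitor list. Cd27, which the T cell list also holds, was a higher member of the stem and progenitor list. It was 4.93 to 14.4 in MDS and 15.5, 173 and 157 in AML (2.93 ± 0.65), again with no overlap. Of 43 genes recurrently mutated in myeloid neoplasms, 4 were higher and 5 lower, below and near the background of 14.1% and 12.8%. Of the 43, 6 lay below all MDS libraries in all 3 AML libraries (background 4.43%).

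Of 32 adhesion and homing genes, 5 were lower and 2 higher at an unadjusted p under 0.05, near and below the background of 12.8% and 14.1%. Vcam1, a ligand of integrin alpha 4, was 46.9 to 91.3 in MDS and 37.7, 24.6 and 36.2 in the library labelled AML 1, AML 4 and AML 5 (-1.06 ± 0.22 (SE), adjusted p = 0.108). Itga4, integrin alpha 4 itself, was 373 to 624 in MDS and 286, 309 and 147 in AML (-0.95 ± 0.25). Cd47, which signals against engulfment, was 405 to 570 in MDS and 337, 261 and 138 in AML (-1.13 ± 0.26). Icam2 was higher, at 6.94 to 20.3 in MDS and 23.6, 34.8 and 26.3 in AML (1.07 ± 0.32). Of the 32, 12 fell and 2 rose without the library labelled AML 1 (background 17.9% and 19.5%). In that library 15 of the 32 were above the MDS range (22.1% of all genes).

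Of 30 B cell genes, none passed, 12 were lower and 2 higher at an unadjusted p under 0.05 (background 12.8% and 14.1%), and 7 lay below all MDS libraries in all 3 (background 4.43%). Cd22, an inhibitory receptor of B cells, was 19.9 to 33.7 in MDS and 16.6, 12.7 and 5.63 in the library labelled AML 1, AML 4 and AML 5. The summed level of the list overlapped (2278 to 3366 in MDS; 1994, 1546 and 2359 in AML), and Rag1 and Dntt, which both lists hold, were high in AML 5. Of 20 dendritic cell and MHC class II genes, none passed, and 7 were lower and 0 higher at an unadjusted p under 0.05 (background 12.8% and 14.1%). Of the 20, 1 lay below all MDS libraries in all 3 AML libraries (background 4.43%). H2-Aa was 96.2, 311 and 320 in MDS and 152, 147 and 35.5 in AML, where MDS 3 was itself low.

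Cytotoxic genes were mixed. Of 15, 1 was higher and 1 lower at an unadjusted p under 0.05, below the background of 14.1% and 12.8%. Gzma, granzyme A, was 0.424 to 4.08 in MDS and 3.71, 237 and 86.5 in the library labelled AML 1, AML 4 and AML 5. Antigen processing genes were mixed, with Psmb8, an immunoproteasome subunit, higher in all 3 (89.3 to 135 in MDS; 161, 318 and 188 in AML; 0.88 ± 0.22 (SE), adjusted p = 0.108). H2-D1 was 490 to 714 in MDS, 800 in the library labelled AML 1, 288 in AML 4 and 262 in AML 5.

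Immediate early genes include Egr1 and the AP-1 factors. Dusp1, a phosphatase that ends MAP kinase signals, was 865, 1395 and 2427 in MDS and 536, 525 and 423 in the library labelled AML 1, AML 4 and AML 5 (-1.50 ± 0.32 (SE), adjusted p = 0.108). Fos was 2027 to 3588 in MDS and 1792, 1625 and 1537 in AML (-0.80 ± 0.30, adjusted p = 0.139). Dusp5 and Dusp2, which encode phosphatases of the same family, lay the opposite way. Dusp5 was 2.81 to 9.55 in MDS and 29.2, 51.9 and 14.1 in AML (1.95 ± 0.44), and Dusp2 was 16.3 to 45.7 in MDS and 68.8, 212 and 46.2 in AML (1.48 ± 0.49). None of these 4 genes overlapped between the groups, while over the 27 genes of the list 2 were higher and 3 lower at an unadjusted p under 0.05, a smaller share than over all genes (14.1% and 12.8%).

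The p53 target genes showed few differences. Of 34, 3 were higher and 2 lower at an unadjusted p under 0.05, below the background in both directions, and the median log2 difference was -0.04. Without the library labelled AML 1, 5 rose and 5 fell, again below the background (19.5% and 17.9%). Bax, a pro-apoptotic target, was 37.6 to 48.9 in MDS and 54.7, 46.8 and 78.3 in the 3 AML libraries. Of the 34, 1 lay above all MDS libraries in all 3 (background 5.13%). It was Tnfrsf10b, a death receptor (0.906 to 2.17 in MDS; 2.35, 10.7 and 4.82 in AML). In the related Bcl2 family, Bcl2l1, the survival gene that erythroblasts need, was 156 to 500 in MDS and 95.8, 126 and 52.8 in AML (-1.51 ± 0.36 (SE), adjusted p = 0.108), and Mcl1 was 722 to 1366 in MDS and 1117, 338 and 365 in AML.

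Of 45 ribosome biogenesis and Myc network genes, 27 were higher and 3 lower at an unadjusted p under 0.05 (background 14.1% and 12.8%), with a median log2 difference of 0.67. Without the library labelled AML 1, 33 rose and 4 fell (background 19.5% and 17.9%), and without AML 4 the count of 27 dropped to 8. Nop56, a core protein of the RNA complexes that modify ribosomal RNA, was 67.1, 75.7 and 81.7 in MDS and 85.7, 211 and 135 in the library labelled AML 1, AML 4 and AML 5 (0.85 ± 0.24 (SE), adjusted p = 0.109). Nolc1 was 86.7 to 115 in MDS and 114, 288 and 177 in AML. Myc, named after its values were seen, was 48.9 to 68.2 in MDS, 292 in AML 4 and 177 in AML 5, but 40.4 in the library labelled AML 1, below every MDS library.

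DNA repair genes gave 17 of 50 higher and 2 lower at an unadjusted p under 0.05 (background 14.1% and 12.8%). Without the library labelled AML 1, 27 rose and none fell (background 19.5% and 17.9%). Without AML 4 or without AML 5 the count of 17 dropped to 6. Alkbh2, which reverses alkylation damage, was 1.43 to 2.83 in MDS and 3.71, 7.31 and 5.40 in the library labelled AML 1, AML 4 and AML 5 (1.05 ± 0.26 (SE), adjusted p = 0.108). Parp1 was 101 to 170 in MDS and 140, 344 and 379 in AML. Replication and mitosis genes gave fewer. Of 45 replication genes, 5 were higher and 2 lower, and of 42 mitosis genes 0 were higher and 7 lower, with no share far above the background of 14.1% and 12.8%. Prc1, a microtubule bundler of cell division, was 132 to 240 in MDS and 119, 64.1 and 70.2 in AML (-1.06 ± 0.24, adjusted p = 0.108).

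Metabolic lists showed small differences. Of 29 cholesterol synthesis genes, 9 were higher and 1 lower at an unadjusted p under 0.05 (background 14.1% and 12.8%). Cyp51, which demethylates lanosterol, was 13.3 to 30.7 in MDS and 44.5, 55.3 and 39.7 in the library labelled AML 1, AML 4 and AML 5 (1.19 ± 0.29 (SE), adjusted p = 0.108). It lay above MDS in all 3 libraries. Of 50 nuclear genes of oxidative phosphorylation, 10 were higher, near the background of 14.1%, and 0 lower, and 7 lay above all MDS libraries in all 3 (background 5.13%). In the stress list, Asns, asparagine synthetase, was 95.9 to 234 in MDS and 86.0, 53.7 and 17.6 in AML (-1.63 ± 0.45, adjusted p = 0.109). The list was divided otherwise, with 9 of 37 higher and 8 lower, both above the background of 14.1% and 12.8%. In the interferon list Rsad2 was 329 to 1824 in MDS and 115, 306 and 90.8 in AML, where MDS 1 was the high library. Of its 33 genes, 1 was higher and 2 lower, both below the background of 14.1% and 12.8%.

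**Figure D5:**
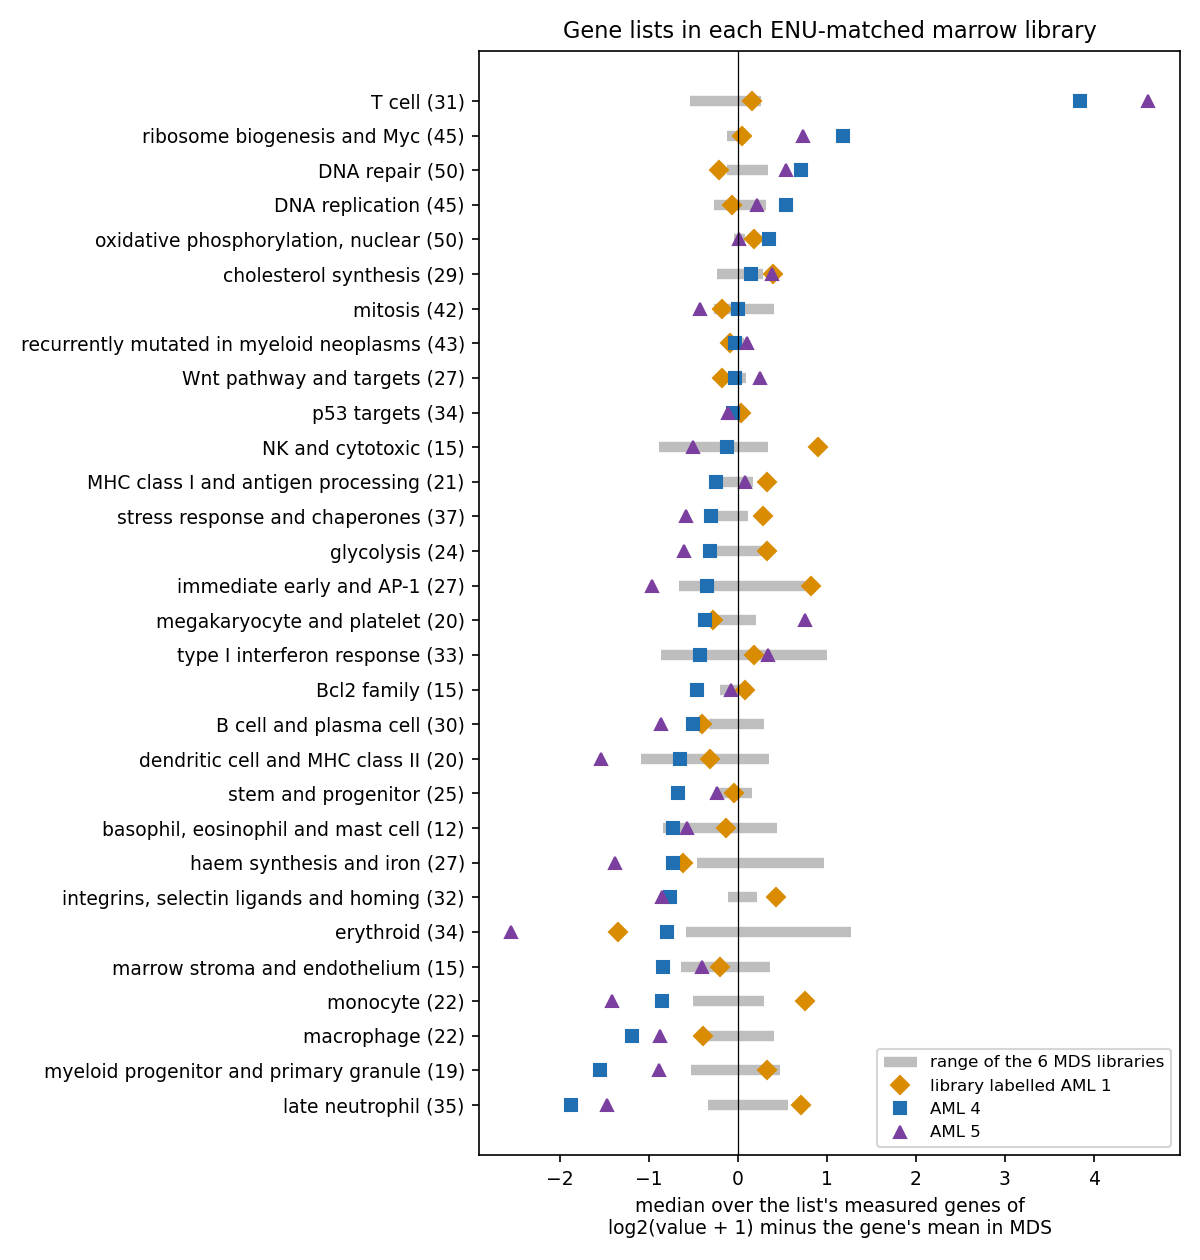
Median, over the measured genes of each of 30 lists (number in brackets), of log2(value + 1) minus the gene's mean in the 6 MDS libraries. Grey bars span the 6 MDS libraries and symbols are the library labelled AML 1 (diamonds), AML 4 (squares) and AML 5 (triangles). The erythroid medians are -1.35, -0.80 and -2.55 in that order, the T cell medians 0.16, 3.84 and 4.61, and the late neutrophil medians 0.71, -1.88 and -1.48.

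The matched AML libraries were set against the other 3 AML libraries, of which AML 2 and AML 3 carry no ENU label and AML 6 had ENU on the recipient only. In a fit over all 12 marrow libraries, limma called 43 genes higher (0.381%) and 22 lower (0.195%) in the matched ones. Alas2 was called higher (4.50 ± 0.85 (SE), adjusted p = 0.0482): it was 809, 1198 and 344 in the matched libraries and 130, 8.08 and 23.4 in AML 2, AML 3 and AML 6. Of 34 erythroid genes, 29 were higher in the matched libraries at an unadjusted p under 0.05 (background 6.7% higher and 4.95% lower), with a median log2 difference of 3.34, and 3 passed (background 0.381%). Cd3d (5.28 ± 0.95, adjusted p = 0.0441) was 5.26, 0.191 and 4.50 in AML 2, AML 3 and AML 6. Other T cell genes, chosen here after their values were seen, were high in AML 6 as well: Tcf7 was 496 there, Bcl11b 73.8 and Gata3 51.1. The summed T cell level was 610 in AML 2, 2254 in AML 3 and 1866 in AML 6. Stfa2 (5.34) and Stfa3 (5.11) were also higher, with at most 2.83 and 2.04 in the other AML libraries, and so was Pkhd1l1 (4.16). The genes called lower included Cacnb2 (-2.66), a calcium channel subunit, at 0.983, 0.950 and 1.56 in the matched libraries and 6.16, 23.2 and 13.4 in the others. Armcx1 (-2.51), Cep170b (-2.40), Rbpms (-2.24) and Nid2 (-2.19) had the same direction. ENU, and whatever else differs between these mice, cannot be told apart with 3 libraries a side, and the counts turned on single libraries: 3 higher and 0 lower without AML 4, 87 and 42 without the library labelled AML 1, 898 and 380 without AML 2, and 100 and 159 without AML 3. With the 6 AML libraries alone in the fit, limma called 0 genes and gave 485 at an unadjusted p under 0.05, while edgeR in the 12-library fit called 25 higher and 16 lower.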

How the data were processed

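Bone marrow RNA was sequenced after TruSeq Stranded mRNA preparation, per the labels' protocols. The submitters' processing notes name bcl2fastq, FastQC, TopHat, SAMtools and edgeR and the build mm10. Not given in the sources used here: counting program, annotation, versions. The deposited signal values were made by the authors by dividing each read count by a library factor, as the steps between low values show. The authors call them CPM, although their sums per library run from 835316 to 1118648. Whole reads were recovered for at least 99.99% of values (tolerance 0.05 read). Of 11430 gene lines, 155 were merged into another line with the same recovered reads in all 12 marrow libraries, which left 11275 genes. Lines were merged whatever their names, as for Hspa1a with Hspa1b.

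Values were tested as log2(value + 1) with limma 3.58.1 in R 4.3.3 (trended variance, Benjamini-Hochberg adjustment), keeping genes with a value of at least 1 in at least 3 libraries, which removed 0 genes. A fold on this scale understates the change of low genes. edgeR 4.0.16 and DESeq2 1.42.0 ran on the recovered reads, and the fits were tested on simulated data. Each library is 1 mouse. Named genes were the targeted alleles, the 8 with the smallest p per direction at a mean of at least 5, up to 5 per list by smallest p, and up to 5 per direction against the other AML libraries. Genes chosen outside this rule are said to be. The libraries and gene lists were chosen with earlier results of these data known. Alternatives covered the pseudocount (0.1), filter, scaling, tool, block, fitted libraries, merging and each library left out. Levels are not corrected for gene length, so they are compared within a gene. Some genes that the rule names are not reported here.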

Additional observations from a re-analysis of the deposited data

Results flagged for a closer look

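Among the 110 genes named, 8 had 1 MDS library set apart from the others on the log2(value + 1) scale. Its gap to its nearest neighbour exceeded the critical share of the group's range on that scale (0.625 for 6 samples). Chance gives this in about 1 of 20 groups. The values printed are as deposited, before the log. MDS 1 was the high library for Rhag (857, others 249 to 389) and Alad (885, others 306 to 450) and the low library for Elane (548, others 1160 to 1650) and Rps6kl1 (0.849, others 1.33 to 1.65). MDS 3 was the low library for Cd3d (4.66, others 11.7 to 16.3), Zap70 (2.76, others 6.06 to 7.69) and H2-Aa (96.2, others 224 to 320). MDS 2 was the high library for Armcx1 (1.87, others 1.21 to 1.33).

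The matched AML libraries differed from the other AML libraries (limma, 12-library fit, adjusted p of 0.0303 to 0.0482) for 14 named genes. The log2 differences were positive for Stfa2 (5.34), Cd3d (5.28), Stfa3 (5.11), Alas2 (4.50), Pkhd1l1 (4.16), Tgif2 (1.74) and Sept4 (1.71). They were negative for Cacnb2 (-2.66), Armcx1 (-2.51), Cep170b (-2.40), Rbpms (-2.24), Nid2 (-2.19), Itga4 (-2.16) and Kit (-1.99).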

How the results depend on the processing

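The counts of genes called depended on the tool and on single libraries. For the matched comparison (0 higher and 0 lower), edgeR gave 22 and 1, DESeq2 1170 and 616, and all 6 AML libraries against MDS 112 and 249. Leaving out each library gave 0 to 2202 higher and 0 to 2018 lower. For the other AML libraries (43 and 22), edgeR gave 25 higher and 16 lower, DESeq2 451 and 241, and the 6 AML libraries alone 0 and 0. Leaving out each library gave 3 to 898 higher and 0 to 380 lower. The pseudocount, filter and scaling changed neither pair of counts by more than 1.5 times, nor did merging for the matched comparison, for which alone it was run. A block by number was not possible for the other AML libraries.

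The replicate numbers did not pair the samples: same-numbered libraries correlated at -0.24, -0.097 and -0.132 in their deviations from the group means. With the replicate block limma called 0 and 0 and gave 855 genes at an unadjusted p under 0.05. With it, the log2 difference was -0.17 for Egr1, -0.14 for Lyz2 and 0.10 for Rbpms, each of the opposite sign.

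No gene at all passed in the main matched fit, so none of those that changed sign had passed there. Some passed in another setting, as Kit did without the library labelled AML 1 (limma, adjusted p = 0.0092). With all 6 AML libraries the log2 difference became 0.94 for Armcx1, 0.87 for Cacnb2, -0.11 for Cd8a, 0.54 for Cep170b, 0.13 for Itga4, 0.35 for Kit, -0.78 for Lyz2, 1.12 for Rbpms, -0.51 for Slc11a2 and -0.30 for Stfa2. For Egr1 it was -0.11 by edgeR and by DESeq2, and for Rbpms 0.0028 by DESeq2. Leaving out each library gave -0.0161 to 0.36 for Apc, -0.88 to 0.0408 for Car1, -0.44 to 1.20 for Cd8a, -0.88 to 3.37 for Dntt, -0.22 to 2.62 for Dtx1, -0.19 to 0.32 for Egr1, -0.91 to 2.15 for Il7r, -0.66 to 0.60 for Lyz2, -0.0419 to 0.38 for Nid2, -0.16 to 1.51 for Notch1 and -0.27 to 0.17 for Rbpms. The cause of these changes was not tested.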

Other observations

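Mitochondrially encoded genes (7 measured) took 1.19% to 2.01% of the summed values in MDS libraries, and 1.05%, 2.25% and 1.61% in the library labelled AML 1, AML 4 and AML 5. The 50 most abundant genes took 16.5% to 19.9% in MDS, 21% in the library labelled AML 1, 10.4% in AML 4 and 10.8% in AML 5. The library labelled AML 1 was thus just above the MDS range and the other 2 well below it.

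Dntt was also high in 1 AML library without ENU, at 767 in AML 3, where Rag1 was 44.5 and Blnk, an adaptor of the B cell receptor, was 382 against 11.9 to 17.4 in MDS. Against the other AML libraries, none of the 3 passed (limma, adjusted p of 0.900 for Dntt, 0.968 for Rag1 and 0.562 for Blnk). Dntt and Rag1 were chosen after their values were seen.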
